A study of Mus musculus with 4 samples.

Results

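The genes described here are 10 genes of the lipoxygenase and leukotriene pathways: Alox12b, Aloxe3, Alox12, Alox12e, Alox8, Alox15, Alox5, Alox5ap, Ltc4s and Lta4h. They were picked by name, through every non-control array probe annotated with one of these symbols, which gave 12 of 39426 probes and 10 of 30340 genes or targets on the array. They were read in keratinocytes, the epithelial cells of the epidermis, prepared with 0.05% collagenase A from the whole skin of newborn C57BL/6 mice and grown for 3 days. The groups were Pla2g2f-/- cells given 1 mM CaCl2 for 48 h, Pla2g2f-/- control cells without it, Pla2g2f+/+ cells given 1 mM CaCl2 and Pla2g2f+/+ control cells, with 1 Cy3 array of 200 ng labelled RNA per group. Pla2g2f encodes a secreted phospholipase A2, and the labels do not say which part of the gene was deleted. RNA of each genotype came from a pool of 6 mice, so a genotype difference and a difference between cell preparations cannot be told apart here. Each group being a single array, the differences carry no p-value and no spread between replicates. The only errors available are technical ones, from the scanner software and from repeat spots.

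Lipoxygenases insert oxygen into polyunsaturated fatty acids. In the epidermis, Alox12b and Aloxe3 act in sequence on the linoleate of acylceramides, a step that lets ceramides be bound to the corneocyte envelope, and loss of either gene causes ichthyosis. In leukocytes, Alox5 works with its membrane partner Alox5ap to make leukotriene A4 from arachidonate. Ltc4s couples that intermediate to glutathione to give leukotriene C4, and Lta4h hydrolyses it to leukotriene B4.

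The probe sequences are shown for the genes on which the comparisons turn, in the 5′ to 3′ direction of the transcript and with the mm9 positions given in the files. Alox12b was read by a pair of probes that gave different calcium differences, so both are shown whole. The first lies at chr11:68979536-68979770 on the plus strand, where its 60 bases span 235 bases of genome. The second lies at chr11:68983186-68983245 on the same strand, 3650 bases downstream. Where a gene has a pair of probes, they are called brighter and dimmer by their mean log2 level over the 4 arrays.
Alox12b brighter probe: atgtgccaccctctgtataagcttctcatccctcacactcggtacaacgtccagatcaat
Alox12b dimmer probe: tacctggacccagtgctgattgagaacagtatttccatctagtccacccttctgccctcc

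For Aloxe3 (chr11:68962557-68962616, plus strand) and Ltc4s (chr11:50049974-50050031, minus strand), 30 bases around a polyadenylation signal in the probe are shown, with the signal in capitals. For Alox5 (chr6:116360326-116360385, minus strand) and Alox5ap (chr5:150099347-150099406, plus strand), the first 30 bases are shown, and neither probe holds such a signal. Such a signal usually precedes the end of a transcript, and a probe there reads that end and no other part. The longest run of bases that a probe of one of these genes shared with a probe of another was 9.
Aloxe3: cccagtgacttcAATAAAagctaacgtatt
Ltc4s: tcccagtttttaATTAAAgttcccacgacg
Alox5: tttatgcttcctccaattgcttgcatagag
Alox5ap: agagacgcatcataacgcaatgccgcgaag

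Levels are given as multiples of the array's own 75th percentile of signal, which was 3299 intensity units in Pla2g2f-/- CaCl2 cells, 2889 in Pla2g2f-/- control cells, 2737 in Pla2g2f+/+ CaCl2 cells and 2638 in Pla2g2f+/+ control cells. A difference is a log2 difference of such levels, and it was counted when it reached 2-fold. The median gene was itself lower in Pla2g2f-/- cells, by -0.17 log2 with calcium and -0.18 without, over the 19227 genes with a measured level on all 4 arrays. Genotype differences are therefore also given relative to that gene. For the labelled cell type, 10 of 10 basal keratinocyte markers were well above background on every array. Of all 30340 genes or targets, 19227 passed this limit, so the count alone does not single out keratinocytes. It was also passed by 13 of 13 macrophage and myeloid and 8 of 8 fibroblast markers, and by 4 of 8 neutrophil markers. Of the 10 genes described, 8 passed that limit on all 4 arrays and 2, Alox8 and Alox15, on none.

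The epidermal barrier lipoxygenases were lower in Pla2g2f-/- cells, and Aloxe3 showed the larger differences. Aloxe3, the epidermal hydroperoxide isomerase, stood at 0.615 in Pla2g2f-/- CaCl2 cells, 0.324 in Pla2g2f-/- control cells, 2.21 in Pla2g2f+/+ CaCl2 cells and 0.588 in Pla2g2f+/+ control cells. The Pla2g2f+/+ CaCl2 array was the high one, and the Pla2g2f-/- CaCl2 array came only to the level of the Pla2g2f+/+ control array (-0.70 and -0.77 log2, each with a scanner error of 0.14). With calcium, Aloxe3 was 3.59-fold lower in Pla2g2f-/- than in Pla2g2f+/+ cells (log2 difference -1.84, scanner error 0.20, and -1.67 relative to the median gene). Without calcium it was 1.82-fold lower (-0.86, scanner error 0.20, relative value -0.69), which is under the 2-fold line. Calcium-treated cells had 1.90-fold more Aloxe3 signal than control cells in Pla2g2f-/- cells (0.93, scanner error 0.20) and 3.76-fold more in Pla2g2f+/+ cells (1.91, scanner error 0.20). The calcium difference was thus smaller in Pla2g2f-/- cells by -0.98 log2 (scanner error 0.29), just short of 2-fold. Over other ways of processing this value ran from -1.01, with arrays scaled to their median and so past 2-fold, to -0.84. Quantile scaling (-0.95) and normexp background correction (-0.93) left it short of 2-fold.

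Alox12b, the 12R-lipoxygenase that acts before Aloxe3, gave answers that depended on the probe. By the brighter probe its level was 0.116 in Pla2g2f-/- CaCl2 cells, 0.101 in Pla2g2f-/- control cells, 0.169 in Pla2g2f+/+ CaCl2 cells and 0.159 in Pla2g2f+/+ control cells. By the dimmer probe the levels were 0.0950, 0.0572, 0.190 and 0.0943 in the same order of groups. Both probes placed Alox12b lower in Pla2g2f-/- cells. By the brighter probe it was 1.46-fold lower with calcium (-0.55, scanner error 0.21) and 1.58-fold lower without (-0.66, scanner error 0.21). By the dimmer probe it was 2.0-fold (-1.0) and 1.65-fold (-0.72) lower. Relative to the median gene these values were -0.37 and -0.48 by the brighter probe, and -0.83 and -0.55 by the dimmer one. Over other ways of processing, the difference with calcium ran from -1.0, by the dimmer probe, to -0.08 with scaling to basal keratinocyte markers. The latter was within the scanner error, and the median of those markers was itself -0.46 in this comparison. The calcium difference of the brighter probe was within its scanner error of 0.21 in both genotypes, at 0.19 log2 in Pla2g2f-/- cells and 0.08 in Pla2g2f+/+ cells. The dimmer probe had 1.66-fold more signal with calcium in Pla2g2f-/- cells (0.73) and 2.02-fold more in Pla2g2f+/+ cells (1.01, scanner error 0.22). Neither probe gave a difference between the 2 calcium differences beyond its scanner error (0.11 with an error of 0.30, and -0.28 with an error of 0.32).

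**Figure D1:**
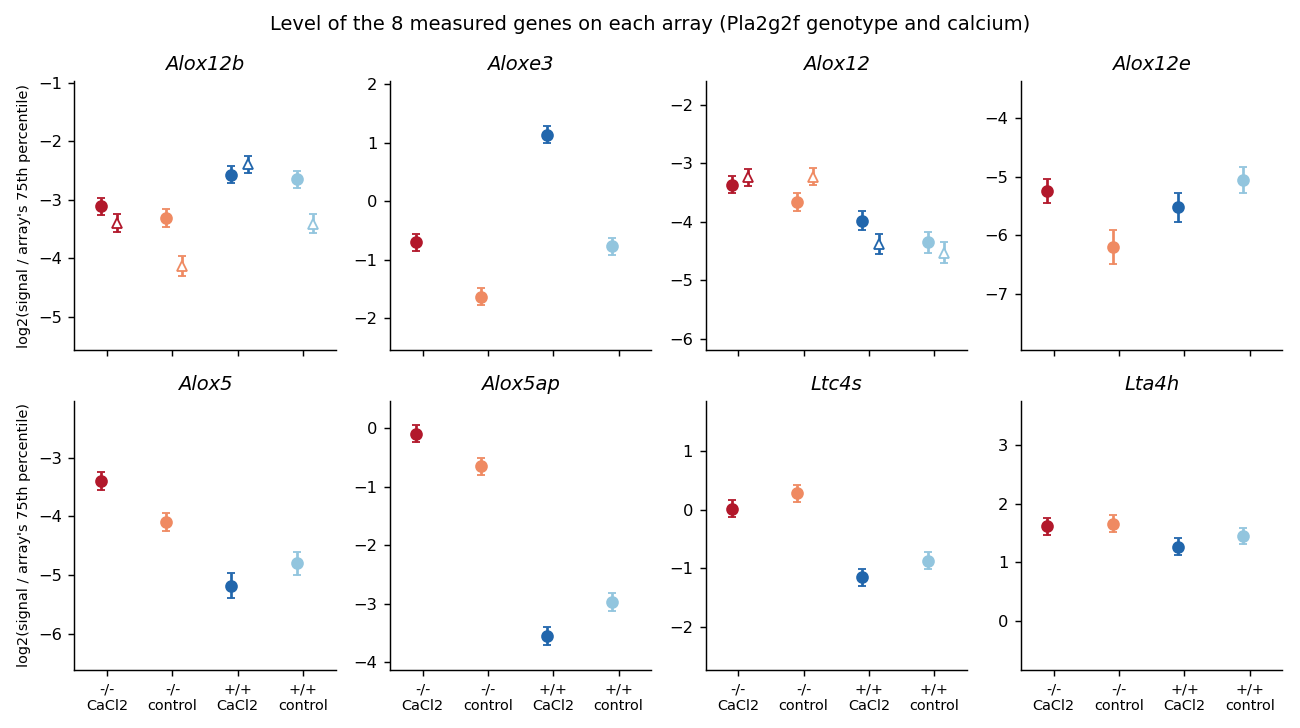
Level of each of the 8 genes well above background on the 4 arrays, as log2 of signal over the array's 75th percentile (vertical axis, a log scale with the same span in each panel), for Pla2g2f-/- and then Pla2g2f+/+ cells with CaCl2 and as control. Filled circles are the brighter probe, open triangles the dimmer probe of Alox12b and Alox12, and bars the scanner software's error for 1 array. Aloxe3 has 1 high array, Pla2g2f+/+ CaCl2, whereas the Alox5ap and Ltc4s points of both Pla2g2f-/- arrays lie above both Pla2g2f+/+ arrays.

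Among the other lipoxygenases of arachidonate, Alox12 was higher in Pla2g2f-/- cells and differed little with calcium. Alox12 is the platelet-type 12-lipoxygenase, which is also made in epidermis. Its brighter probe (chr11:70055715-70055774, mm9, minus strand) read 0.0970 in Pla2g2f-/- CaCl2 cells, 0.0792 in Pla2g2f-/- control cells, 0.0632 in Pla2g2f+/+ CaCl2 cells and 0.0490 in Pla2g2f+/+ control cells. Its dimmer probe, 7914 bases upstream on the transcript strand (chr11:70063629-70063688), read 0.106, 0.107, 0.0480 and 0.0434 in the same order of groups. Both Pla2g2f-/- arrays were above both Pla2g2f+/+ arrays by either probe. The genotype difference by the brighter probe was 1.53-fold with calcium (0.62, scanner error 0.22, relative value 0.79) and 1.62-fold without (0.69, scanner error 0.23, relative value 0.87). By the dimmer probe it was 2.20-fold (1.14) and 2.46-fold (1.30), past the 2-fold line in both. Calcium differences of Alox12 lay between -0.01 and 0.37 log2 over both probes and genotypes.

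Alox12e, the epidermal-type 12-lipoxygenase of the mouse, was read close to the lower limit of the arrays. Its probe (chr11:70129157-70129216, mm9, minus strand) had 86.9 intensity units in Pla2g2f-/- CaCl2 cells, 39.3 in Pla2g2f-/- control cells, 59.4 in Pla2g2f+/+ CaCl2 cells and 79.3 in Pla2g2f+/+ control cells. The lowest signal that counted as well above background was 31.1 to 40.4 units on these arrays, and repeat spots between 30 and 100 units had a median SD of 0.26 log2. Alox12e was 2.21-fold lower in Pla2g2f-/- control than in Pla2g2f+/+ control cells (-1.14, scanner error 0.36, relative value -0.97), but short of 2-fold with quantile scaling (-0.76), normexp background correction (-0.72) and scaling to basal keratinocyte markers (-0.82). With calcium the genotypes differed by 0.28, within the scanner error of 0.32. Alox12e was 1.94-fold higher with calcium than without in Pla2g2f-/- cells (0.95, scanner error 0.36, and 0.34 with normexp correction or 1.5 with scaling to basal keratinocyte markers), and in Pla2g2f+/+ cells it was 1.39-fold lower (-0.47, scanner error 0.33).

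Alox8, the 8-lipoxygenase that phorbol ester induces in mouse skin, and Alox15, the 12/15-lipoxygenase of macrophages and eosinophils, were not well above background on any array. Alox8 signals were 6.74 to 8.71 intensity units (chr11:68997387-68997446, mm9, minus strand) and Alox15 signals 8.49 to 18.7 units (chr11:70159115-70159339, minus strand, 225 bases of genome for 60 of probe). No difference is given for either gene. These signals place both genes under the range that the arrays could measure, which is not the same as absence of the transcript.

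The leukotriene A4-forming pair, Alox5 and Alox5ap, was higher in Pla2g2f-/- cells, most of all with calcium. Alox5ap, the membrane protein that presents arachidonate to Alox5, stood at 0.936 in Pla2g2f-/- CaCl2 cells and 0.637 in Pla2g2f-/- control cells, against 0.0850 in Pla2g2f+/+ CaCl2 cells and 0.127 in Pla2g2f+/+ control cells. Both Pla2g2f-/- arrays were far above both Pla2g2f+/+ arrays. Alox5ap was 11-fold higher in Pla2g2f-/- than in Pla2g2f+/+ cells with calcium (3.46, scanner error 0.21, relative value 3.63) and 5.0-fold higher without (2.32, scanner error 0.21, relative value 2.5). These were the largest genotype differences of the 8 genes compared. In bulk RNA of this kind, more cells of a type and more RNA per cell cannot be told apart.

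Alox5, the 5-lipoxygenase itself, read 0.0953 in Pla2g2f-/- CaCl2 cells and 0.0584 in Pla2g2f-/- control cells, against 0.0275 in Pla2g2f+/+ CaCl2 cells and 0.0359 in Pla2g2f+/+ control cells. Its order over the arrays was the same as that of Alox5ap, but its distances were smaller. With calcium it was 3.46-fold higher in Pla2g2f-/- cells (1.79, scanner error 0.26, relative value 1.96). Without calcium it was 1.63-fold higher (0.70, scanner error 0.25, relative value 0.88), short of 2-fold. The Pla2g2f+/+ signals were 75.3 units with calcium and 94.8 without, in the range of the noisier repeat spots. With normexp background correction the difference with calcium was 1.11 instead of 1.79.

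The calcium differences of Alox5 and Alox5ap had opposite signs in the 2 genotypes. In Pla2g2f-/- cells calcium-treated cells were 1.63-fold higher for Alox5 (0.71, scanner error 0.22) and 1.47-fold higher for Alox5ap (0.55, scanner error 0.20). In Pla2g2f+/+ cells they were 1.31-fold lower for Alox5 (-0.38, scanner error 0.29) and 1.5-fold lower for Alox5ap (-0.58, scanner error 0.21). No one of these reached 2-fold, but the difference between the genotypes did, at 1.09 log2 for Alox5 (scanner error 0.36) and 1.14 for Alox5ap (scanner error 0.29). That of Alox5 was short of 2-fold under quantile scaling (0.89) and normexp correction (0.77). Scaling to basal keratinocyte markers put the Alox5 calcium difference in Pla2g2f+/+ cells at 0.02, so its signs were then no longer opposite.

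Of the enzymes that use leukotriene A4, Ltc4s was at least 2-fold higher in Pla2g2f-/- cells and Lta4h was not. Ltc4s, leukotriene C4 synthase, read 1.01 in Pla2g2f-/- CaCl2 cells and 1.22 in Pla2g2f-/- control cells, against 0.451 in Pla2g2f+/+ CaCl2 cells and 0.547 in Pla2g2f+/+ control cells. It was 2.24-fold higher in Pla2g2f-/- cells with calcium (1.17, scanner error 0.20, relative value 1.34) and 2.22-fold higher without (1.15, scanner error 0.20, relative value 1.33). Its calcium differences were -0.27 in Pla2g2f-/- cells and -0.28 in Pla2g2f+/+ cells, each with a scanner error of 0.20, and both turned positive with basal keratinocyte markers as the scale. Lta4h, leukotriene A4 hydrolase, read 3.05 and 3.15 in Pla2g2f-/- cells with CaCl2 and as control (chr10:92947503-92947562, mm9, plus strand), against 2.41 and 2.73 in Pla2g2f+/+ cells. It varied least of the 8 genes, over 0.39 log2 in all. Its genotype difference was 1.27-fold with calcium (0.34, relative value 0.51) and 1.16-fold without (0.21, relative value 0.38), against a scanner error of 0.20.

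**Figure D2:**
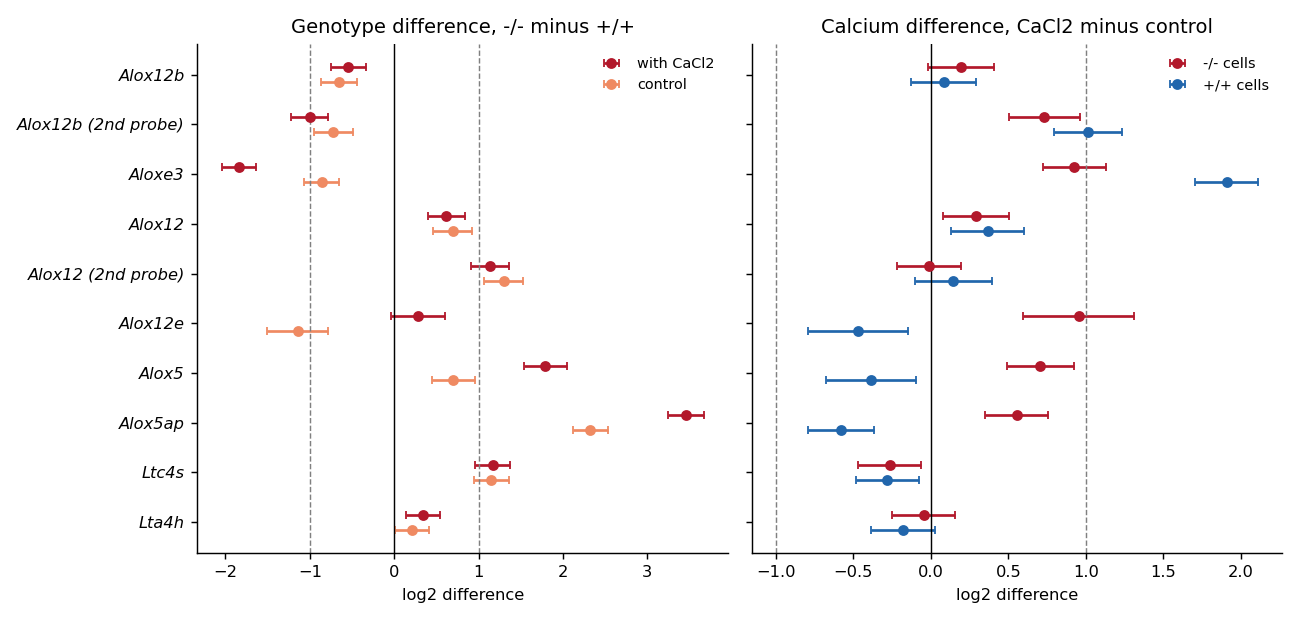
Log2 differences of the 8 compared genes between Pla2g2f-/- and Pla2g2f+/+ cells (left) and between CaCl2 and control cells (right), with the dimmer probe of Alox12b and Alox12 on rows of their own. Bars are the scanner software's error of the difference, not a spread between cultures, and dashed lines mark 2-fold. Alox5ap lies at 3.46 and 2.32 on the left, Aloxe3 at -1.84 and -0.86, and on the right Alox12e, Alox5 and Alox5ap lie on opposite sides of 0 in the 2 genotypes.

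More of the 8 compared genes passed 2-fold by genotype than by calcium. With calcium, 3 of 8 were at least 2-fold higher in Pla2g2f-/- cells (Alox5, Alox5ap and Ltc4s) and 1 was lower (Aloxe3), where 6.55% of 21564 genes compared were higher and 3.05% lower. Their median difference was 0.48, against -0.16 over all genes compared. Without calcium, 2 were higher (Alox5ap and Ltc4s) and 1 lower (Alox12e), with 4.65% of 21346 genes higher and 4.32% lower, and medians of 0.45 and -0.18. With the dimmer probes, Alox12 also counted as higher in both comparisons and Alox12b as lower in the comparison with calcium. In the calcium comparison of Pla2g2f-/- cells 0 of 8 reached 2-fold, where 2.99% of 21428 genes were higher and 0.602% lower, and the medians were 0.42 and -0.03. In that of Pla2g2f+/+ cells 1 of 8 was higher (Aloxe3) and 0 lower, with 2.47% of 21129 genes higher and 1.01% lower, and medians of -0.23 and -0.07. The difference of the calcium differences passed 2-fold upwards for 3 of 8 (Alox12e, Alox5 and Alox5ap), where 1.91% of 19227 genes did, and downwards for 0, where 0.629% did. Each array serves in several of these comparisons, so they are not independent of each other.

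Most of these genes share a chromosome. Of the 10, 7 lie on chromosome 11, and 6 of these are lipoxygenases in 2 groups. Probe starts of Aloxe3, Alox12b and Alox8 were 16979 and 17851 bases apart, and after a gap of 1058328 bases those of Alox12, Alox12e and Alox15 were 73442 and 29958 bases apart. Within the first group Aloxe3 and Alox12b were lower in Pla2g2f-/- cells while Alox8 was not measurable. Within the second, the genotype differences of Alox12 were 0.62 with calcium and 0.69 without, and those of Alox12e 0.28 and -1.14. Alox12e was read near the lower limit of the arrays, its 0.28 was within the scanner error, and Alox15 was not measurable. Ltc4s lies 18912583 bases from Aloxe3 on the same chromosome.

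Promoter windows of 250 bases before the transcript start were matched for 7 of the 10 genes from RefSeq (GRCm38.p6): Alox12, Alox12b, Alox12e, Alox5, Alox8, Lta4h and Ltc4s. Aloxe3, Alox15 and Alox5ap are named only. Windows were searched on both strands for the GC box GGGCGG, the TATA box TATAAA, the AP-1 site TGANTCA and the PU.1 core GAGGAA, and no matches overlapped. The windows of a gene that was lower (Alox12b) and of one that was higher (Alox5) in Pla2g2f-/- cells are shown, with matches in capitals. The Alox12b window (chr11:69156822-69157071, plus strand) has a GC content of 66% with 3 GC boxes and 1 PU.1 core, and the Alox5 window (chr6:116461179-116461428, minus strand) one of 52.8% with 1 GC box and 1 PU.1 core. Over 32851 such windows the median GC content was 52.4%, and 32.7% held a GC box, 12.4% a TATA box, 6.75% an AP-1 site and 23.3% a PU.1 core. None of the 7 windows held a TATA box or an AP-1 site by these letters. A match is a description of the letters and not evidence of binding.
Alox12b promoter: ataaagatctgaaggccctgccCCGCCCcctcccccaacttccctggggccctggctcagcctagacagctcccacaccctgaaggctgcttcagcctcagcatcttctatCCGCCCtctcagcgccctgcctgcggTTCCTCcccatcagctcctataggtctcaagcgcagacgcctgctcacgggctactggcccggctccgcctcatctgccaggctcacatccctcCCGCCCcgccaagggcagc
Alox5 promoter: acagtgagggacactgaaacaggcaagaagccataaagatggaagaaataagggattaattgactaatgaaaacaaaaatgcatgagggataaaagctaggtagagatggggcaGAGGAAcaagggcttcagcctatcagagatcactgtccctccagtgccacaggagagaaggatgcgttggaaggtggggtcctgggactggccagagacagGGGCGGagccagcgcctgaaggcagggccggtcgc

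Genes further along the leukotriene route went partly the way of Ltc4s. Of 12 genes for leukotriene conversion, export and breakdown, 11 could be compared between genotypes, with Cyp4f14 not well above background on any array. With calcium 4 were at least 2-fold higher in Pla2g2f-/- cells and 1 lower, where 6.55% and 3.05% of all genes were. The median was 0.89 against -0.16 for all genes. Without calcium the counts were also 4 and 1, against 4.65% and 4.32% of all genes, and the median was 0.26 against -0.18. The higher genes were Ggt5 and Ggt1, transpeptidases that trim leukotriene C4, the dipeptidase Dpep2, which takes the product on to leukotriene E4, and Mgst3, which can make leukotriene C4. Ggt5 was 3.74 log2 higher with calcium and 1.98 without, Dpep2 1.95 and 1.98, and Mgst3 1.14 in both. Ggt1 was at least 1.40 and 1.49 log2 higher, as bounds, since it was not well above background in Pla2g2f+/+ cells. Mgst2, another microsomal enzyme able to make leukotriene C4, was lower, by -1.22 and -1.05. Other probes of Ggt5 did not give the same answer, with 0.13 and 1.0 with calcium and -0.85 and 0.24 without, and the other probe of Dpep2 gave 0.71 and 0.48.

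Ptgr1, a reductase that inactivates leukotriene B4, was the gene of this group with the clearest calcium difference. It had 14921 intensity units in Pla2g2f-/- CaCl2 cells and 2796 in Pla2g2f-/- control cells, a log2 difference of 2.22. It had 7695 units in Pla2g2f+/+ CaCl2 cells and 3369 in Pla2g2f+/+ control cells, a difference of 1.14. It was the 1 gene of this group past 2-fold upwards in each calcium comparison, of 11 compared in Pla2g2f-/- cells and 10 in Pla2g2f+/+ cells. Over all genes 2.99% and 2.47% passed 2-fold upwards there. Ggt5 was lower with calcium in Pla2g2f+/+ cells by its brightest probe (-1.27), where another probe gave -0.28, and none was at least 2-fold lower in Pla2g2f-/- cells.

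At most 1 receptor passed 2-fold in any comparison and direction. Of 9 receptors for leukotrienes and related oxylipins, 7 could be compared, with Oxgr1 and Fpr2 not well above background on any array. Ltb4r1, the high-affinity leukotriene B4 receptor, had 3182 intensity units in Pla2g2f-/- CaCl2 cells, 5029 in Pla2g2f-/- control cells, 3710 in Pla2g2f+/+ CaCl2 cells and 5786 in Pla2g2f+/+ control cells. It was lower with calcium, by -0.85 and -0.69 log2 in Pla2g2f-/- and Pla2g2f+/+ cells, which is short of 2-fold. Past 2-fold was Cmklr1, a chemerin receptor, which was higher in Pla2g2f-/- cells with calcium (1.29), as 6.55% of all genes were. Cysltr2, a cysteinyl leukotriene receptor, was lower in them without calcium (at most -1.05, as a bound), as 4.32% of all genes were. Gpr17, a receptor related to those for cysteinyl leukotrienes, was lower with calcium in Pla2g2f-/- cells (-1.22), as 0.602% of all genes were. Each was 1 of 7 compared. The difference of the calcium differences of Cmklr1 was 1.18, and 1.91% of all genes passed 2-fold upwards there. The receptor medians were 0.12 with calcium and -0.33 without in the genotype comparisons, and 0.14 in Pla2g2f-/- and -0.44 in Pla2g2f+/+ cells in the calcium comparisons. Those of all genes compared were -0.16, -0.18, -0.03 and -0.07 in the same order.

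The substrates of Alox12b and Aloxe3 are acylceramides, and genes that make and attach them had calcium differences above 0 for 12 of 15 in each genotype. Of 15 such genes, 6 were at least 2-fold higher with calcium in Pla2g2f-/- cells and 4 in Pla2g2f+/+ cells. None was 2-fold lower in either, and the medians were 0.70 and 0.60. Over all genes compared 2.99% and 2.47% were higher, and the medians were -0.03 and -0.07. Tgm1, the transglutaminase that crosslinks the envelope, was higher by 3.28 log2 in Pla2g2f-/- cells and 4.36 in Pla2g2f+/+ cells. Elovl4, the elongase of very long fatty acids, was higher by 2.94 and 2.58, the lipid transporter Abca12 by 1.60 and 1.37, and the ceramide synthase Cers3 by 1.12 and 1.13. Cyp4f39, the omega-hydroxylase of these fatty acids, was higher by 2.34 in Pla2g2f-/- cells (scanner error 0.34) and 0.84 in Pla2g2f+/+ cells. Pnpla1, the transacylase that puts linoleate on the ceramide, was higher by 1.03 and by a bound of at least 0.94. In Pla2g2f-/- control cells Cyp4f39 had 35.2 and Pnpla1 44.3 intensity units, near the lowest signal well above background there, 31.1.

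Between genotypes most of the acylceramide genes differed by less than 2-fold. With calcium 2 of 15 were lower in Pla2g2f-/- cells, Nipal4 (-1.13), a membrane protein whose loss also causes ichthyosis, and Tgm1 (-1.12), and 1 was higher, the epoxide hydrolase Ephx2 (3.09). Without calcium 2 were lower, Nipal4 (-1.39) and Sdr9c7 (at most -1.20, as a bound), a dehydrogenase that acts on the product of Aloxe3, and 1 was higher, Ephx2 (2.83). Over all genes compared, 3.05% were lower and 6.55% higher with calcium, and 4.32% lower and 4.65% higher without. The medians of the acylceramide genes were -0.09 and -0.11 against -0.16 and -0.18 for all genes. The Tgm1 calcium difference was smaller in Pla2g2f-/- cells by -1.08 log2, beside -0.98 for Aloxe3, while those of Elovl4, Abca12 and Cers3 were 0.36, 0.23 and -0.02.

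**Figure D3:**
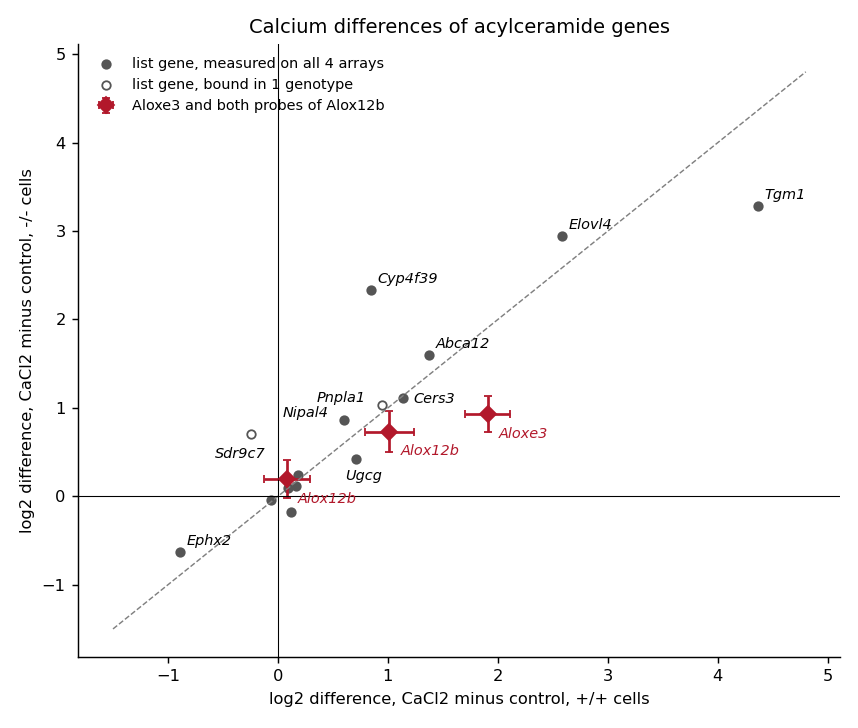
Calcium differences (log2, CaCl2 minus control) of 15 acylceramide genes and of Aloxe3 and Alox12b, in Pla2g2f-/- cells (vertical axis) against Pla2g2f+/+ cells (horizontal axis). The dashed line marks equal differences and bars are scanner error. Aloxe3 and Tgm1 lie below the line, and Cyp4f39, read near the lower limit in Pla2g2f-/- control cells, above it. The 2 probes of Alox12b lie apart, at 0.08 and 1.01 on the horizontal axis.

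Markers of differentiated keratinocytes were higher with calcium, as Aloxe3 was, but differed among themselves between genotypes. Of 10 such markers 9 were analysed, without Flg, and their summed level in multiples of the 75th percentile was 15.0 in Pla2g2f-/- CaCl2 cells, 2.22 in Pla2g2f-/- control cells, 25.2 in Pla2g2f+/+ CaCl2 cells and 1.33 in Pla2g2f+/+ control cells. Calcium-treated cells were at least 2-fold higher for 7 of 9 in Pla2g2f-/- cells and 5 of 9 in Pla2g2f+/+ cells. Of 6 measured on all arrays, 4 had a calcium difference at least 2-fold smaller in Pla2g2f-/- cells. Over all genes these shares were 2.99%, 2.47% and 0.629%. The summed level rests mostly on Lor, Krtdap and Cnfn. Between genotypes with calcium 2 of 9 were at least 2-fold higher and 2 lower in Pla2g2f-/- cells, against 6.55% and 3.05% of all genes. Without calcium 2 of 6 were higher and 0 lower, against 4.65% and 4.32%. Lor (-1.35) and Cnfn (-1.17) were lower with calcium. Krtdap and Calm4 were higher in Pla2g2f-/- control cells (1.45 and 1.86) and differed less with calcium (-0.19 and -0.37), whereas Aloxe3 was lower in both. The list median of the calcium difference was 2.37 in Pla2g2f-/- cells and 1.72 in Pla2g2f+/+ cells. The latter is the bound of Dsc1, so which median was larger cannot be read. Dsg1a was higher with calcium by at least 4.21 in Pla2g2f-/- cells and at least 0.41 in Pla2g2f+/+ cells, Dsc1 by at least 3.65 and 1.72, and Ivl differed by 0.81 and 0.32. Their part in the Aloxe3 differences was not tested.

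Most macrophage and mast cell markers were higher in Pla2g2f-/- cells, as were Alox5ap, Alox5 and Ltc4s, all known from myeloid or mast cells. Of 13 macrophage and myeloid markers all were well above background on every array, and their summed level was 43.9 in Pla2g2f-/- CaCl2 cells and 30.6 in Pla2g2f-/- control cells, against 7.56 in Pla2g2f+/+ CaCl2 cells and 9.10 in Pla2g2f+/+ control cells. With calcium 11 of 13 were at least 2-fold higher in Pla2g2f-/- cells (median 3.13), where 6.55% of all genes were. Without calcium 10 of 13 were (median 2.02), where 4.65% of all genes were. The exceptions with calcium were Cd14 (0.23) and Itgam (-0.89). Like Alox5 and Alox5ap, these markers had a calcium difference above 0 at the median in Pla2g2f-/- cells (0.55) and below 0 in Pla2g2f+/+ cells (-0.44). For 7 of 13 the difference between genotypes passed 2-fold upwards, as it did for 1.91% of all genes. Medians of fibroblast (0.27 and -0.19), platelet (0.52 and -0.01) and sebaceous gland (0.15 and -0.29) markers had the same signs. Those of mast cell markers were below 0 in both genotypes (-0.09 and -0.52). Of 10 mast cell markers 9 were measured on every array, with Ms4a2 dim, and 9 of 9 were at least 2-fold higher in Pla2g2f-/- cells with calcium (median 3.71) and without (median 3.04). Their summed level was 11.6 and 11.7 in Pla2g2f-/- cells with CaCl2 and as control, against 1.72 and 1.55 in Pla2g2f+/+ cells. The part of these cells in the leukotriene gene differences was not tested.

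Of 8 neutrophil markers, Mpo, Ngp, Ltf and Cxcr2 were not well above background on any array, and 0 of the other 4 reached 2-fold between genotypes. Over all genes compared, 6.55% were at least 2-fold higher and 3.05% lower in Pla2g2f-/- cells with calcium, and 4.65% and 4.32% without. At such shares 0 of 4 does not set the neutrophil markers apart. The counts of the lists that follow stand beside the same shares. The summed level of the list was 20.2 and 22 in Pla2g2f-/- cells with CaCl2 and as control, against 25.7 and 25.9 in Pla2g2f+/+ cells. Csf3r alone made up most of these sums, with log2 levels of 4.24 to 4.63. For the platelet list, whose cells make Alox12, the summed levels were 12.3 and 8.60 against 1.72 and 3.02, of which Pf4 made up most, while Ppbp was not well above background on any array. Of this list 3 of 7 compared were at least 2-fold higher in Pla2g2f-/- cells with calcium and 3 of 5 without, with 0 lower. These were Pf4 (2.94 and 1.56), Gp1ba (at least 1.59 and 1.73) and Treml1 (at least 1.95 and 1.16), while Itga2b, the platelet integrin chain, was at -0.69 and -0.27. Eosinophil markers summed to 0.172 and 0.194 in Pla2g2f-/- cells against 0.0993 and 0.0928 in Pla2g2f+/+ cells, with Prg2 dim, and Langerhans and dendritic cell markers to 0.823 and 0.797 against 1.27 and 1.18, with Cd207 dim. Adipocyte markers were at least 2-fold higher in Pla2g2f-/- cells for 7 of 7 measured in both comparisons, with summed levels of 105 and 129 against 26.4 and 39.4, and fibroblast markers were at least 2-fold higher for 6 of 8 with calcium and 1 of 8 without (above 0 for 8 and 7), with 177 and 166 against 93.8 and 108. Sebaceous gland markers had genotype medians of 0.01 with calcium and 0.27 without. Those of T and natural killer cell markers were -0.08 and -0.12, but over only 2 and 3 genes compared. With calcium these were Thy1 (0.55) and Cd3e (-0.70), while Cd3g, Cd3d, Ncr1 and Klrb1c were not well above background on any array. Little can thus be read from this list. The part of any of these cells in the results was not tested.

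**Figure D4:**
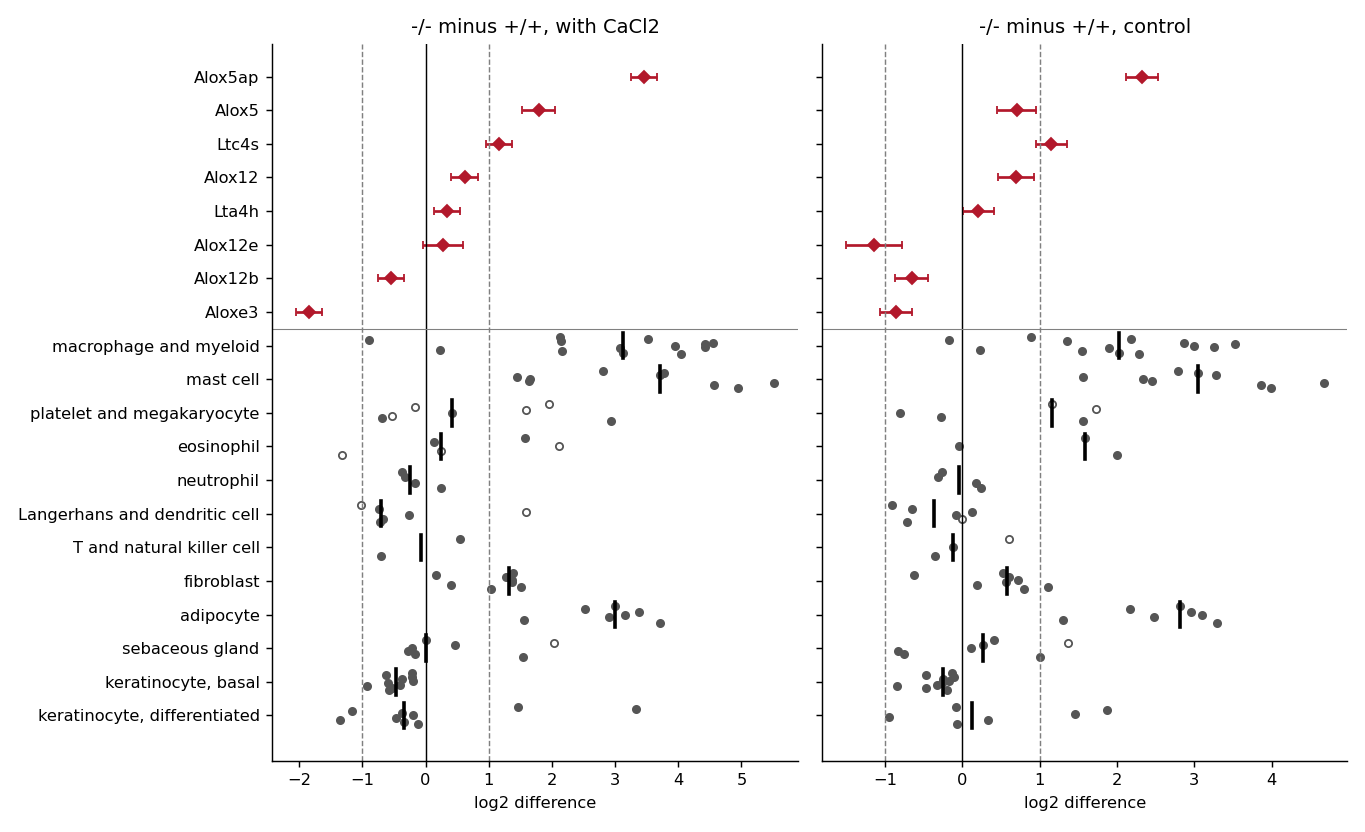
Log2 genotype differences (Pla2g2f-/- minus Pla2g2f+/+) with calcium (left) and without (right) for the 8 compared genes (diamonds, with scanner error) and for each member of 12 lists of cell type markers (points, open where the value is a bound, with the list median as a vertical bar). Dashed lines mark 2-fold. Alox5ap, at 3.46 and 2.32, lies among the macrophage, mast cell and adipocyte markers, whose medians run from 2.02 to 3.71, and basal keratinocyte markers lie between -1 and 0.

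The genes whose levels over the 4 arrays were nearest to those of each lipoxygenase or leukotriene gene were found by the Euclidean distance between mean-centred log2 levels, among 14342 named genes measured on every array. This was done for the 5 genes whose levels spanned at least 1 log2, and over 4 arrays the measure is only a description. For Aloxe3 the nearest were Rhox10 (0.34), Pramel20 (0.35) and Ankrd22 (0.39), and 9 genes lay within 0.5. For Alox5ap they were Tnxb (0.11), Slc11a1 (0.13) and Igsf6 (0.14), with 50 genes within 0.5, and for Alox5 Hey1 (0.11), Tmem37 (0.12) and Itgb2 (0.15), with 158. For Ltc4s they were Mgst3 (0.05), Bnip3 (0.07) and Cebpa (0.08), with 649, and for Alox12e Msh4 (0.11), Ska3 (0.13) and Nt5c1a (0.14), with 252. The Aloxe3 pattern thus had the fewest close neighbours of the 5.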

How the data were processed

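RNA pooled per genotype was read on 4 Agilent 1-colour mouse arrays of 1 slide. The files hold each spot's intensity, deposited as the authors read it with Agilent Feature Extraction 11.5.1.1, per the file headers and the submitters' processing notes. Background and spatial trend had been removed within each array, per the file headers. The deposited value table is a ratio, which the authors formed as signal over the array's 75th percentile. It matched that quotient to 2.31e-07 after a divisor difference of at most -0.0583%, with column medians of 0.0645, 0.0612, 0.0623 and 0.0660 in Pla2g2f-/- CaCl2, Pla2g2f-/- control, Pla2g2f+/+ CaCl2 and Pla2g2f+/+ control cells.

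Here control spots and 105 to 116 outlier spots per array were left out, no remaining spot was saturated, and the level was log2 of signal minus that of the 75th percentile over 43020 spots. Of 39426 probes, 27507 took their gene from the accession and 11919 from the file's own symbol. Between 67.0% and 68.6% of probes were well above background, and repeat spots had a median SD of 0.07 log2. Each of the 12 probes had 1 spot, and a gene was read from its probe with the higher mean level. Where 1 of 2 arrays was dim, a bound against the array's lowest measurable signal was taken. No test could be run with single arrays, which limits the precision. All 10 genes are named, pathway genes where they reached 2-fold (at most 6 per comparison and direction), and the 3 nearest genes per pattern. Ltb4r1 and the cell type markers named were picked after their values were seen. The genes and lists were chosen with earlier results of these data known. The steps were tested on simulated data. Alternatives were quantile and median scaling, normexp background correction (offset 50), probe means, the deposited table, other filters and a 3-fold threshold. Scaling to basal keratinocyte markers and the dimmer probes were added after the data were seen. Python 3.11.15, numpy 2.4.6, pandas 2.3.3, R 4.3.3 and limma 3.58.1 were used.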

Additional observations from a re-analysis of the deposited data

Results flagged for a closer look

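The calcium differences of 3 genes had opposite signs in the 2 genotypes, higher with calcium in Pla2g2f-/- cells and lower in Pla2g2f+/+ cells. The difference between the genotypes was 1.42 log2 for Alox12e, 1.09 for Alox5 and 1.14 for Alox5ap. With 1 array per group these differences were not tested. The scanner errors of the differences were 0.48, 0.36 and 0.29, and Alox12e had 39.3 to 86.9 intensity units, near the lowest signal counted as well above background. Over the alternatives the difference ran from 0.67 to 1.57 for Alox12e, from 0.77 to 1.23 for Alox5 and from 1.06 to 1.28 for Alox5ap. Normexp correction left the differences of Alox12e and Alox5 short of 2-fold. With scaling to basal keratinocyte markers the Alox5 calcium difference in Pla2g2f+/+ cells was 0.02, which is no longer of opposite sign.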

How the results depend on the processing

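No paired analysis was possible because each group is 1 array and the labels number no replicates, and for the same reason no array could be left out. The number of genes past 2-fold stayed within 1.5 times of the reported one except as follows. For the difference of the calcium differences it was 1 (Alox5ap) instead of 3 with normexp background correction and 0 with a 3-fold threshold. For Pla2g2f-/- against Pla2g2f+/+ without calcium it was 1 (Alox5ap) instead of 3 with a 3-fold threshold. For calcium in Pla2g2f-/- cells it was 4 (Aloxe3, Alox12e, Alox5 and Alox5ap, all higher) instead of 0 with scaling to basal keratinocyte markers, which raised the median of all genes compared there to 0.52 log2. For calcium in Pla2g2f+/+ cells it was 2 (Alox12b and Aloxe3) instead of 1 with the dimmer probes. Scaling to basal keratinocyte markers also put the genotype medians of all genes at 0.31 with calcium and 0.14 without, made Alox12 at least 2-fold higher in both genotype comparisons, and moved 31 of 40 single differences by more than their scanner error. Without calcium it gave 4 higher and 0 lower genes, Alox5 now among the higher, where 2 and 1 are reported. Quantile scaling gave 2 and 0 there, with Alox12e at -0.76. Over all genes it gave 1161 higher and 399 lower without calcium, where 992 and 922 are reported, and 187 and 184 for the difference of the calcium differences, where 367 and 121 are reported. For calcium in Pla2g2f-/- cells the counts over all genes, reported as 640 higher and 129 lower, were 318 and 26 with normexp correction, 435 and 59 with both arrays measured, 1919 and 447 with no filter and 2384 and 26 with scaling to basal keratinocyte markers. Of 40 single differences, normexp correction moved 9, the dimmer probes 7, the mean of probes 5, and quantile scaling 1 by more than the scanner error, and neither median scaling nor the deposited table moved any. The cause was not tested.

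Over all alternatives Aloxe3 ran from -1.86 to -1.38 with calcium, Alox5ap from 3.12 to 3.92 with and 2.06 to 2.65 without calcium, Ltc4s from 1.1 to 1.63 and 1.11 to 1.47, and Alox5 with calcium from 1.11 to 2.26, each past 2-fold throughout. Alox12e without calcium ran from -1.14 to -0.72. The sign was not kept for the calcium differences of Ltc4s and Lta4h in both genotypes, Alox12 in Pla2g2f-/- cells and Alox5 in Pla2g2f+/+ cells, for Alox12e between genotypes with calcium, and for the differences of the calcium differences of Alox12, Alox12b and Ltc4s. Signals under 100 intensity units, as for Alox12e and for Alox5 in Pla2g2f+/+ cells, limit what can be read, and no spread between cultures is known.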
